A study of Mus musculus with 4 samples.

Results

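The 10 genes described here, Sox1, Sox2, Sox3, Pax6, Pax3, Irx3, Olig2, Nkx6-1, Nkx2-2 and Isl1, encode transcription factors that give cells of the neural tube their identity. They were listed by name, out of 21325 protein-coding genes with a position in the mouse assembly GRCm38 (mm10). For each gene, the peaks of CTCF and RAD21 with a summit inside the gene or within 50 kb of either end were collected. Peaks of the 3 CTCF lists that overlapped by 1 bp or more were merged into sites, which gave 39 sites near the 10 genes, of 56026 in all.

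The peaks came from ChIPmentation, in which immunoprecipitated chromatin is cut and tagged on the beads by the transposase Tn5. Gastruloids, which embryonic stem cells form in culture as small aggregates that elongate along a body axis, were collected at 96 h, pooled and fixed with formaldehyde. CTCF was mapped in 3 genotypes. Beside wild type, these were a HoxB mutant called InsCBS5-10 here and a derivative of it called DelCBS7-10. Both mutants carry Del on one HoxB copy and Del(i9-13) with Ins(CBS5-10), an insertion of CTCF binding sites, on the other. DelCBS7-10 carries Del(CBS7-10) in addition. RAD21 was mapped in InsCBS5-10. HoxB lies on chromosome 11, and none of the 10 genes is on that chromosome. There was 1 library per group, so no difference between lists has a replicate check and no p-value is given. A further RAD21 list, whose peak names read RAD21, wt and 96h, has no sample of its own in the labels and is given apart, as the authors' list without a sample. No expression was measured, so the cells could not be checked against marker genes, and the levels of these 10 factors in the gastruloids are not part of the data.

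CTCF is a zinc-finger protein that binds a long DNA motif and halts cohesin, the ring-shaped complex that extrudes chromatin loops. RAD21 is the subunit that closes the cohesin ring, so a CTCF peak that overlaps a RAD21 peak is commonly read as a place where cohesin is held. In the neural tube, Sox1, Sox2 and Sox3 keep cells as neural progenitors. Sonic hedgehog from the ventral side and BMP and Wnt signals from the dorsal side then divide progenitors into domains, through pairs of factors that repress each other. Genes of this kind often stand alone in long stretches of noncoding DNA that hold their enhancers.

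Of the 10 genes, 9 had a CTCF site within 50 kb, where 90.9% of all protein-coding genes had one. At least 1 site called in all 3 CTCF lists lay near 7 of the 10, against 81.1% of all genes. The number of sites ran from 0 at Sox3 to 7 at Pax3 and at Nkx6-1, with a median of 3.5, and the median over all genes was 5.0. Part of the window is the gene itself, and these genes were short, with a median length of 4782 bp against 17345 bp. Per 100 kb of window the medians were 3.13 sites for the 10 genes and 3.43 for all genes.

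**Figure D1:**
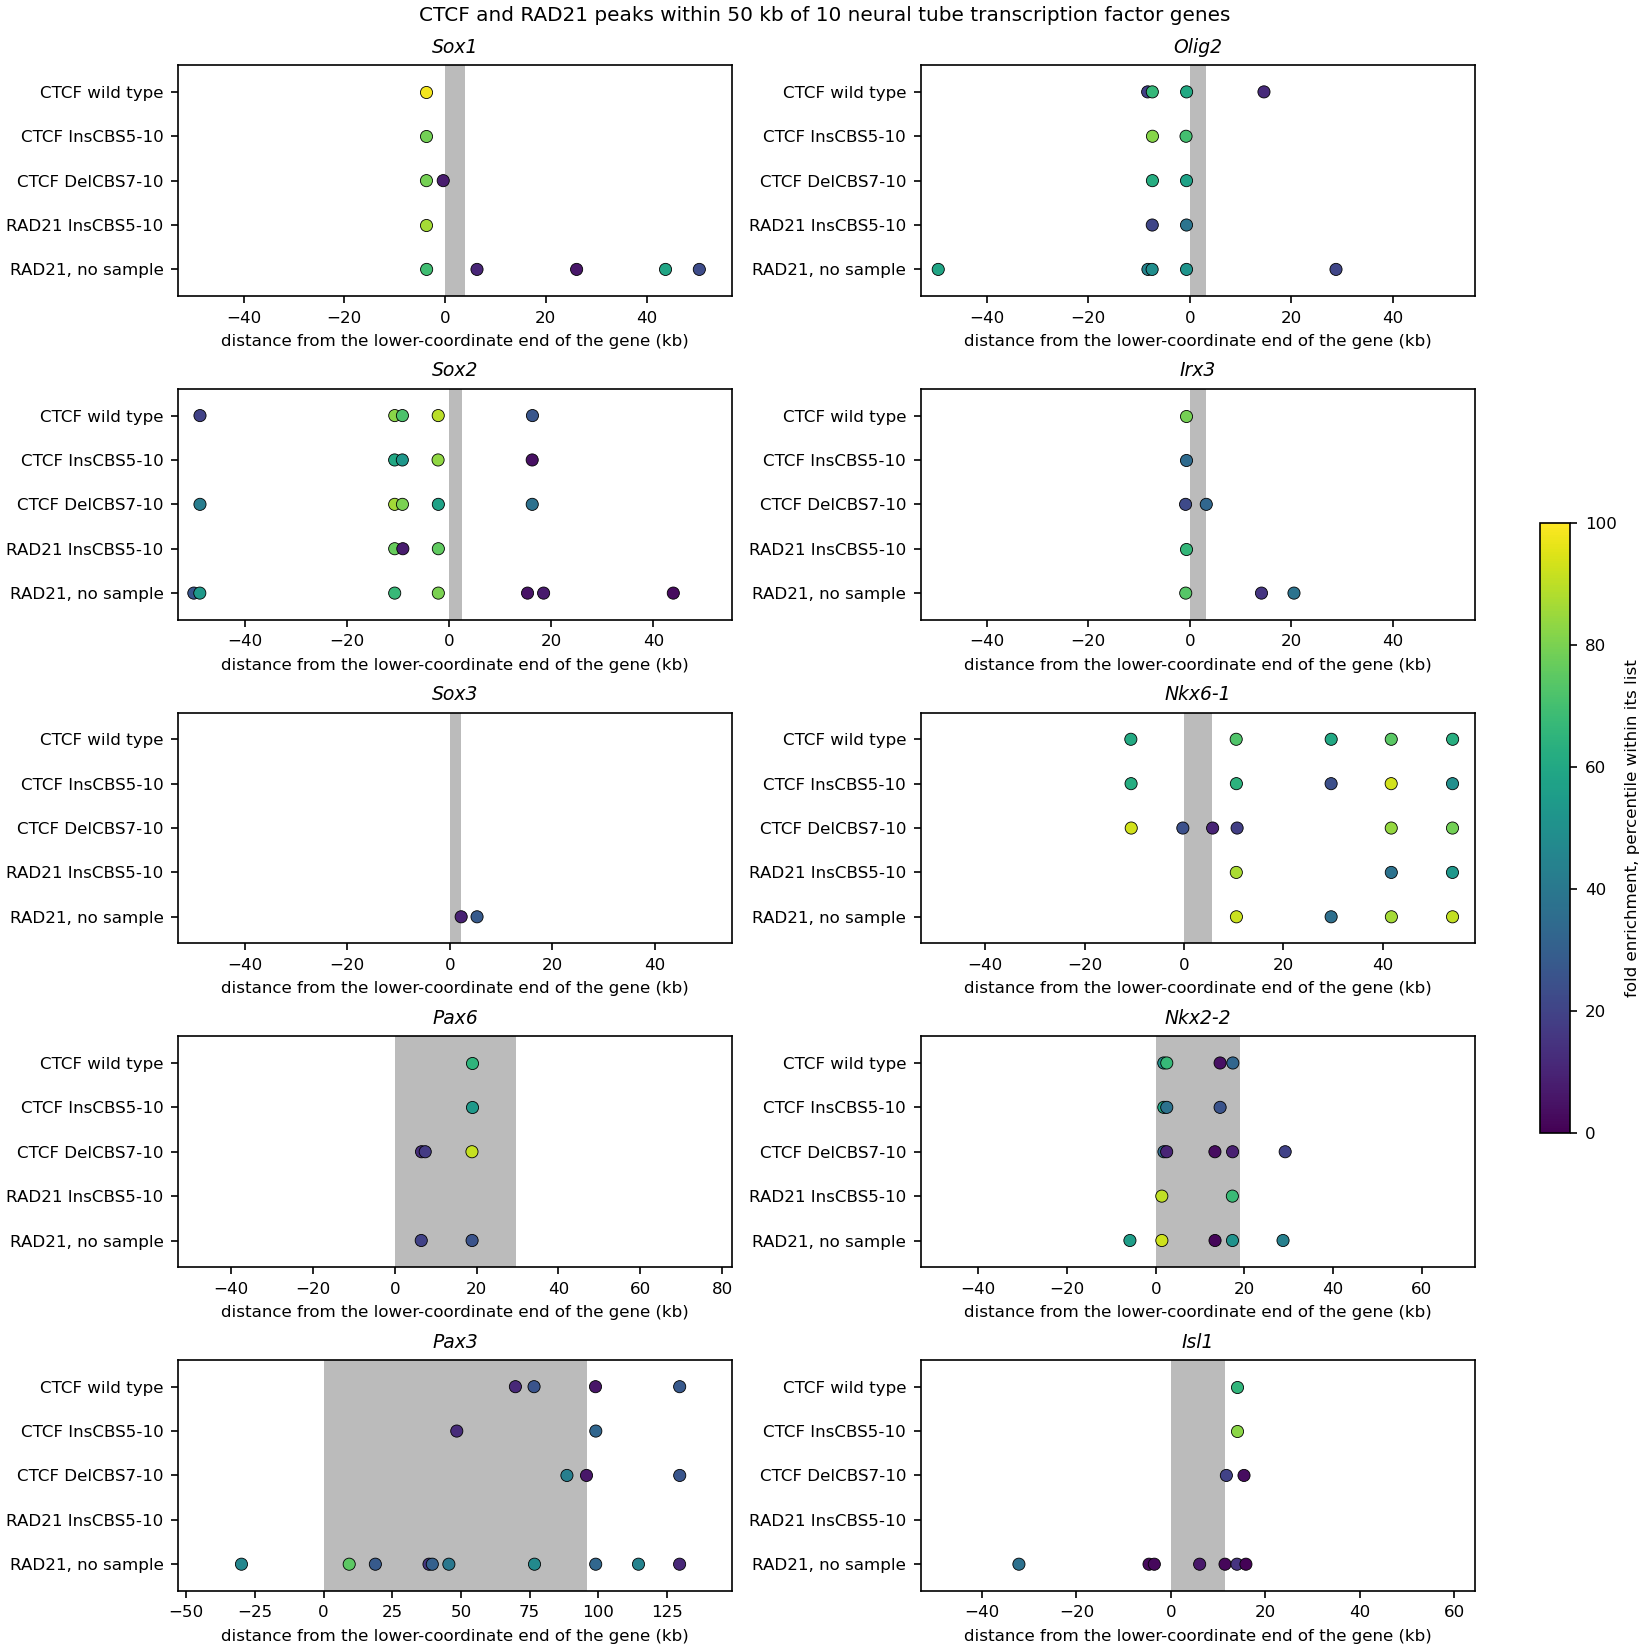
Peaks of the 5 lists around each gene. The horizontal axis is the distance in kb from the end of the gene with the lower coordinate, the grey band is the gene, each row is a peak list, and the colour is the percentile of the fold enrichment within that list. Sox2 and Nkx6-1 show columns of points shared by the CTCF lists, Sox3 has points only in the RAD21 list without a sample, and Pax3 has mostly dark, unshared points.

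Fold enrichment is the authors' ratio of summit signal to local background within 1 library. It moves with the depth of a library, which is unknown, so each value is read here against its own list, by its percentile. The percentile is the rank of the value as a percentage of the list's peaks, with tied values given their mean rank. The 26 wild-type CTCF peaks of the 10 genes had fold enrichments from 2.69 to 15.2, with a median percentile of 60.5. The 20 peaks of InsCBS5-10 ran from 3.0 to 9.41 with a median percentile of 56.5. The 30 peaks of DelCBS7-10 ran from 2.95 to 8.74, and their median percentile was 29.9. DelCBS7-10 thus had the most peaks near these genes, though its whole list of 36589 peaks was shorter than the wild-type list of 47931, and 20 of the 30 were in the lower 50% of their list. The InsCBS5-10 list held 34499 peaks.

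Sites called in all 3 CTCF lists made up 15 of the 39 (38.5%, exact Clopper-Pearson 95% interval 23.4% to 55.4%), against 49.0% of all sites. Sites called in DelCBS7-10 alone made up 12 of the 39 (30.8%, 17.0% to 47.6%), against 7.53% of all sites. The wild-type list alone called 4 sites (10.3%, 2.87% to 24.2%), against 24.4%, and the InsCBS5-10 list alone called 1 (2.56%, 0.0649% to 13.5%), against 5.89%. Of the remaining 7 sites, 4 were shared by wild type and InsCBS5-10 and 3 by wild type and DelCBS7-10. The intervals cover counting error only, since sites near one gene share a window and all come from the same libraries. The share of DelCBS7-10 sites was noticed after the values were seen, and whether it belongs to the genotype or to that 1 library cannot be told apart.

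**Figure D2:**
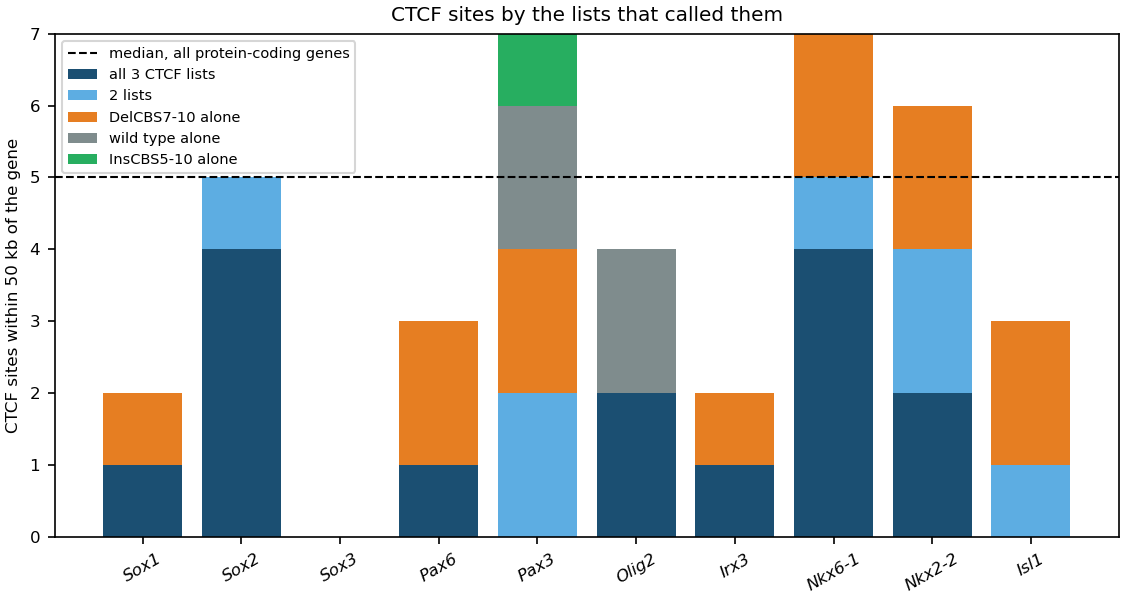
CTCF sites within 50 kb of each gene, stacked by the CTCF lists that called them, with the median over all protein-coding genes as a dashed line. Sites of DelCBS7-10 alone, in orange, appear at 7 of the 10 genes, while sites of wild type alone appear at Pax3 and Olig2.

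The 12 sites of DelCBS7-10 alone lay near 7 genes, Sox1, Pax6, Pax3, Irx3, Nkx6-1, Nkx2-2 and Isl1. Over all genes, 29.0% had such a site within 50 kb, and of 26 other transcription factors of neural tube patterning 13 had one. Of 10 genes for patterning signals and their response, 1 had one. The 12 peaks were weak, with fold enrichments from 2.95 to 4.93 and percentiles from 3.18 to 42.6 of the DelCBS7-10 list. Their median fold of 3.57 was close to the 3.48 of all sites of DelCBS7-10 alone, and their median width was 358 bp against 210 bp. By position, 5 of the 12 were inside the gene and 6 were outside but within 5 kb. Of the 15 sites called in all 3 lists, 3 were inside the gene and 5 outside but within 5 kb. The share of all sites in these positions is not given here. Over all sites, 7.94% of those of DelCBS7-10 alone lay within 1 kb of a start. That share was 7.24% for sites of all 3 lists, 6.89% for wild type alone and 3.31% for InsCBS5-10 alone.

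A site called in DelCBS7-10 alone was found within 1 kb of an annotated transcription start at 4 of the 8 genes whose starts could be placed, Sox1, Irx3, Nkx6-1 and Isl1. Over 17077 genes with a placed start, 1.66% had one. The −log10 q of these calls was 2.54 at Sox1, 3.2 at Nkx6-1, 3.93 at Isl1 and 6.48 at Irx3. Only the Irx3 call reached the stricter threshold of 5 used below, and the share of all genes at that threshold is not given. The comparison uses the same sites of DelCBS7-10 alone whose share was noticed after the values were seen. Starts of Pax3 and Sox3 were not used here. Within the same distance, wild type alone called no site at the 8 genes (4.91% of all genes) and InsCBS5-10 alone called none (0.468%). A site of all 3 lists was near a start at Olig2 (8.78% of all genes). Among 21 of the other patterning factors, 3 had a site of DelCBS7-10 alone near a start, namely Nkx2-9, Neurog1 and Lhx1, and among 8 of the signalling genes none did.

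The upstream sequence of the 3 genes where such a peak reaches into the 250 bases before the start is shown here, because these windows overlap DelCBS7-10 calls. They are from RefSeq on GRCm38.p6, 5′ to 3′ along the gene, all on the minus strand, and capitals mark the bases inside the peak. The windows are chr8:91801655-91801904 for Irx3 with 188 bases in the peak, chr5:101664712-101664961 for Nkx6-1 with all 250, and chr13:116309689-116309938 for Isl1 with 89. The summit of the peak is inside the window at Irx3 and Nkx6-1 and outside it at Isl1, 345 bp upstream.
Irx3: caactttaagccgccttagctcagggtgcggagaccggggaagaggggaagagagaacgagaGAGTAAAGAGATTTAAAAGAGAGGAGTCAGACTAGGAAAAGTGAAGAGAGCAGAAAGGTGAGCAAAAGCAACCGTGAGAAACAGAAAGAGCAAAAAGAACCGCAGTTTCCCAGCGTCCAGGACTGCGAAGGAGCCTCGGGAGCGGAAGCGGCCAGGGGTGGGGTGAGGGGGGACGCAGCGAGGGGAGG
Nkx6-1: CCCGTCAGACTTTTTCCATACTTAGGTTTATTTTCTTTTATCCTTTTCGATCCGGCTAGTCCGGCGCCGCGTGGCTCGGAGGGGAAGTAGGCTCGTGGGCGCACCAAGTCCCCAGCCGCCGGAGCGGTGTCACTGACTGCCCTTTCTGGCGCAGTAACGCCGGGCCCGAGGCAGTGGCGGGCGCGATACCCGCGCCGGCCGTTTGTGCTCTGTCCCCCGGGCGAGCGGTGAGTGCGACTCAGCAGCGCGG
Isl1: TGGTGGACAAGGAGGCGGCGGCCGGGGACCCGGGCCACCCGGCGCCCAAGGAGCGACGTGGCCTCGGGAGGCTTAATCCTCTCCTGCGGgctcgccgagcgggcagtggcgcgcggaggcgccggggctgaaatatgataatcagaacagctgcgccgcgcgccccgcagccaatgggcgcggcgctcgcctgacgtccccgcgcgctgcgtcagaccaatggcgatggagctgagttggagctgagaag
These windows held 13 CG dinucleotides in Irx3, 30 in Nkx6-1 and 33 in Isl1, and the median over all promoter windows was 6. The windows of the other genes, without such a peak, were also above it, with 8 in Nkx2-2, 15 in each of 2 Pax6 windows, 22 in Olig2, 27 in Sox2 and 29 in Sox1. The G and C content of the printed windows was 56.0%, 65.2% and 71.2% in the same order, with a median of 52.4% over all windows. The core of the CTCF motif was searched on both strands in 4 forms. The first form was spelled AGGGGGC and the next one AGGTGGC. The other forms, which differ from these at 1 base, were spelled AGAGGGC in the first case and AGATGGC in the last. None of the 4 is in these 3 windows, which says only that these letters are not there. One or more of them is in 23.6% of all 32851 promoter windows, and in 2 of the 9 windows of the 8 genes, at Sox1 and Sox2. The Sox1 peak of DelCBS7-10 lay just outside its upstream window.

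The Sox genes of the SoxB1 group, which hold cells in the neural progenitor state, had the strongest site and the emptiest window of the list. Sox1 (chr8:12395519-12399555) is one of the earliest genes to mark neural ectoderm. Its site at chr8:12391576-12392097, 3734 bp upstream, had a fold enrichment of 15.2 in the wild-type list, 7.55 in InsCBS5-10 and 7.11 in DelCBS7-10. These are percentiles 98.4, 78.7 and 79.1, and the wild-type value is the highest among all CTCF peaks of the 10 genes. RAD21 was called there in InsCBS5-10 at 9.60 (percentile 86.4) and in the list without a sample at 5.69 (percentile 69.3). The other Sox1 site, at chr8:12395082-12395263 and 361 bp upstream of the start, was called in DelCBS7-10 alone at 3.16 (percentile 7.76).

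Sox2 (chr3:34649995-34652461), which also keeps embryonic stem cells pluripotent, had 5 sites, of which 4 were called in all 3 lists. The site at chr3:34647618-34648209, 2089 bp upstream, had 11.3 in the wild-type list, 8.0 in InsCBS5-10 and 5.73 in DelCBS7-10, with RAD21 at 8.24 in InsCBS5-10 and 7.0 in the list without a sample. A pair of sites stood farther upstream, 10597 bp and 9098 bp from the gene. The outer one, at chr3:34639237-34639575, had 9.80, 6.19 and 7.76 with RAD21 at 8.38 in InsCBS5-10. The inner one, at chr3:34640760-34641189, had 8.22, 5.75 and 7.17, and its RAD21 peak in InsCBS5-10 was weak at 3.49 (percentile 7.74). Both were above the middle of each CTCF list and were far apart in the RAD21 list. The downstream site at chr3:34666210-34666450 was weak in every list, at 3.67, 3.0 and 4.66, with no RAD21 peak in either list. No Sox2 site was called in DelCBS7-10 alone, but at 48716 bp upstream chr3:34601209-34601578 was called in wild type (3.34) and DelCBS7-10 (4.89) and not in InsCBS5-10.

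Sox3 (chrX:60891366-60893430), the X-linked member of the group, had no CTCF peak in any of the 3 lists within 50 kb and no RAD21 peak of InsCBS5-10. Of the 21325 genes, 1930 had no CTCF site, Sox3 among them. The RAD21 list without a sample had peaks at chrX:60893423-60893620 with 2.73 (percentile 9.20) and at chrX:60895948-60896819 with 3.34 (percentile 28.0). A peak that was not called is not shown to be absent from the chromatin.

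Pax6, Irx3 and Pax3 are active in the intermediate and dorsal neural tube. Pax6 (chr2:105668896-105698410), a paired-box factor of the neural progenitors that is also needed for the eye, had 3 sites, all inside the gene. The site at chr2:105687600-105688369 had 7.34 in the wild-type list, 5.80 in InsCBS5-10 and 8.45 in DelCBS7-10, at percentiles 65.1, 53.8 and 91.2. No RAD21 was called on it in InsCBS5-10, and the list without a sample had 3.25 (percentile 25.6). DelCBS7-10 alone called chr2:105675362-105675757 (3.47) and chr2:105676156-105676475 (3.68), both under percentile 20 of its list. The strongest Pax6 site was therefore in the upper 50% of all 3 CTCF lists without a RAD21 call in InsCBS5-10.

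Irx3 (chr8:91798511-91801654), an Iroquois homeobox factor that represses Olig2 and is repressed by it, had 2 sites, one at each end. The site 822 bp downstream, at chr8:91797338-91797969, had 9.31 in the wild-type list, 4.68 in InsCBS5-10 and 3.92 in DelCBS7-10, at percentiles 79.1, 34.7 and 22.5. RAD21 stood on it at 7.37 in InsCBS5-10 (percentile 66.2) and at 6.16 in the list without a sample (percentile 73.5). At the other end, chr8:91801618-91801842, with its summit 99 bp upstream of the start, was called in DelCBS7-10 alone at 4.47 (percentile 33.2). Its −log10 q of 6.48 was the highest of the 12 sites of DelCBS7-10 alone.

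Pax3 (chr1:78101267-78197136), a paired-box factor of the dorsal neural tube, the neural crest and muscle precursors, is the longest of the genes at 95870 bp. It had 7 sites, none called in all 3 lists and none with RAD21 of InsCBS5-10. Their fold enrichments ran from 2.71 to 4.93, and no peak reached the middle of its list. The strongest, at chr1:78189705-78190224 inside the gene, was called in DelCBS7-10 alone at 4.93 (percentile 42.6). Just outside the gene, chr1:78200241-78200468 had 2.71 in wild type and 4.57 in InsCBS5-10 and no call in DelCBS7-10. At chr1:78230727-78231039, 33.8 kb outside, wild type had 3.72 and DelCBS7-10 had 4.14. The remaining 4 sites were inside the gene and were each called in a single list, 2 in wild type (2.93 and 3.61), 1 in InsCBS5-10 (3.43) and 1 in DelCBS7-10 (3.12). The RAD21 list without a sample had 10 peaks at Pax3, of which 7 were on no CTCF site, the strongest at chr1:78110351-78110925 with 6.30 (percentile 74.7).

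The 3 ventral factors Olig2, Nkx6-1 and Nkx2-2 together had 17 of the 39 sites, 8 of them called in all 3 lists. Olig2 (chr16:91225550-91228677) marks the progenitors of motor neurons and, later, of oligodendrocytes. It had a site at chr16:91224671-91225072, with the InsCBS5-10 summit 753 bp upstream of the start, where CTCF was 6.77 in the wild-type list, 6.88 in InsCBS5-10 and 5.72 in DelCBS7-10. Another site, at chr16:91217952-91218332 and 7362 bp upstream, had 7.53, 7.86 and 5.96. All 6 of these values lay between percentiles 57.7 and 81.9, in the upper 50% of every CTCF list. RAD21 of InsCBS5-10 was lower in its list at both, with 5.43 (percentile 38.5) at the near site and 4.36 (percentile 20.9) at the far one. Wild type alone called chr16:91217182-91217440 (3.30) and chr16:91240016-91240228 (2.95), both under percentile 20.

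Nkx6-1 (chr5:101659184-101664711), a homeobox factor of the ventral progenitor domains, had 7 sites, 4 of them called in all 3 lists. The site 4963 bp upstream, at chr5:101669596-101670010, had 8.33 in the wild-type list, 6.46 in InsCBS5-10 and 3.74 in DelCBS7-10, at percentiles 72.4, 64.1 and 18.5. It carried RAD21 at 9.74 in InsCBS5-10 and 9.13 in the list without a sample, at percentiles 87.3 and 91.9. Farther upstream, chr5:101700429-101701142 had 8.60, 9.41 and 7.58 with RAD21 at 5.38 in InsCBS5-10, and chr5:101712925-101713320 had 7.03, 5.53 and 7.09 with RAD21 at 6.38. On the other side of the gene, chr5:101648163-101648713, 10629 bp downstream, had 6.80, 6.32 and 8.74, and no RAD21 list called a peak on it. RAD21 was thus found on all 3 of the shared sites upstream of Nkx6-1 and not on the shared site downstream. A further upstream site at chr5:101688608-101688909 was called in wild type (6.73) and InsCBS5-10 (4.09) but not in DelCBS7-10. DelCBS7-10 alone called chr5:101664538-101664968 at the start (3.31) and chr5:101658805-101659556 at the 3′ end (4.01).

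Nkx2-2 (chr2:147176485-147195434), a homeobox factor of the most ventral neuronal progenitors, had 6 sites, 5 of them inside the gene. Sites called in all 3 lists lay at chr2:147177720-147178504, with 5.57 in the wild-type list, 6.15 in InsCBS5-10 and 4.54 in DelCBS7-10, and at chr2:147178768-147179130, with 7.60, 4.84 and 3.30. The highest RAD21 value of InsCBS5-10 near any of the 10 genes, 10.3 (percentile 90.5), was at the first. Its peak, chr2:147177659-147178015, did not overlap the InsCBS5-10 CTCF peak at chr2:147178128-147178444, with summits at 147177847 for RAD21 and 147178302 for CTCF. The RAD21 list without a sample had 1 wide peak over both sites, chr2:147177458-147179083, with its strongest summit at 147177859 (9.19) and weaker ones at 147178322 (3.60) and 147178924 (2.94). Wild-type CTCF had a summit of 4.84 at 147177894 beside its main summit of 5.57 at 147178293, and DelCBS7-10 had 3.22 at 147178003 beside 4.54 at 147178328. The strongest RAD21 summit of each list was therefore closer to these side summits than to the main CTCF summit, while a weaker summit of the list without a sample lay 29 bp from the main wild-type CTCF summit. Another RAD21 peak of InsCBS5-10, 7.49 (percentile 67.6), lay on the site at chr2:147193666-147193953, where wild type had 4.06 and DelCBS7-10 had 3.23 and InsCBS5-10 had no CTCF call. The site at chr2:147190847-147191088 was called in wild type (2.69) and InsCBS5-10 (4.15). DelCBS7-10 alone called chr2:147189309-147189878 (2.96) and, 10227 bp beyond the upstream end of the gene, chr2:147205522-147205685 (3.80). The annotated start used here for Nkx2-2 lies inside the gene interval, 19259 bp from the summit of that last site.

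Isl1 (chr13:116298270-116309688), a LIM-homeobox factor that motor neurons and heart progenitors need, had 3 sites, all upstream, and none was called in all 3 lists. At chr13:116311981-116312477, 2652 bp upstream, wild type had 7.38 (percentile 65.4) and InsCBS5-10 had 7.93 (percentile 82.7), and DelCBS7-10 had no call. This was the strongest of the 24 sites that were missing from 1 or more lists, by its best percentile. On either side of it DelCBS7-10 alone called chr13:116309850-116310495, 345 bp upstream with 3.82 (percentile 19.9), and chr13:116313686-116313870, 4081 bp upstream with 2.95 (percentile 3.18). RAD21 of InsCBS5-10 was called at none of these, and the list without a sample had 2.90 (percentile 15.2) at the site shared by wild type and InsCBS5-10.

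Strength and sharing went together among the 39 sites. The best percentile of a site in any CTCF list ran from 37.2 to 98.4 (median 79.9) for the 15 sites of all 3 lists. It ran from 25.6 to 82.7 (median 32.8) for the 7 sites of 2 lists, and from 3.18 to 42.6 (median 12.9) for the 17 sites of 1 list. More lists also give more chances of a high value, so the first of these ranges is in part set by the count of lists.

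**Figure D3:**
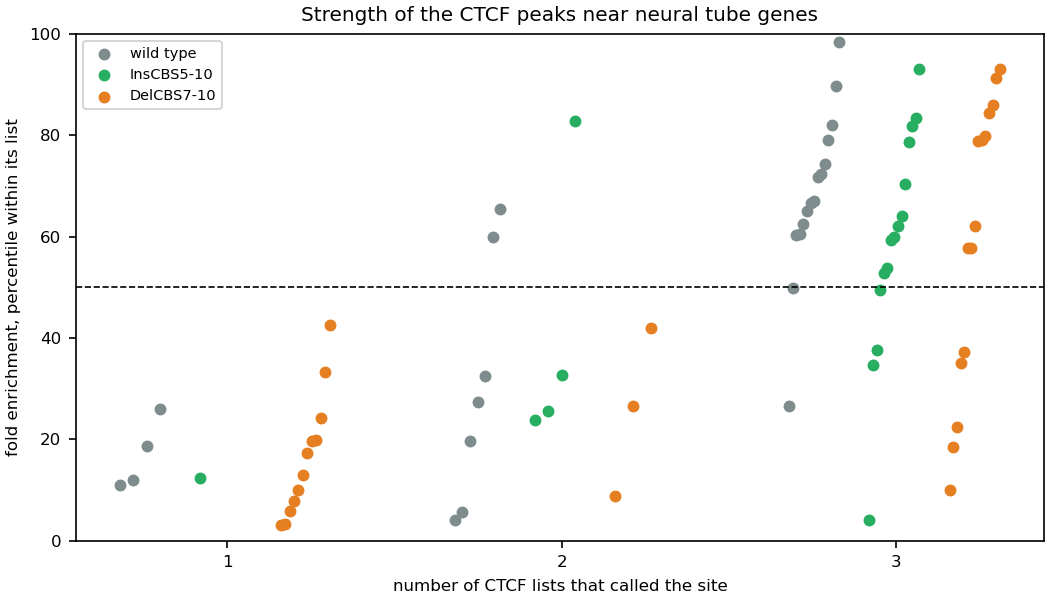
Percentile of each CTCF peak within its own list (vertical axis) against the number of CTCF lists that called the site (horizontal axis), coloured by genotype. Points of a genotype are spread sideways in order of their value only so that they can be seen apart, and the dashed line is the middle of each list. All peaks of sites called in 1 list are under the line, and most peaks of sites called in 3 lists are above it.

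The second question was where cohesin sat on these sites, which could be asked within InsCBS5-10. Of its 20 CTCF peaks near the 10 genes, 10 overlapped a RAD21 peak of the same genotype (50.0%, exact Clopper-Pearson 95% interval 27.2% to 72.8%), against 48.2% of all its CTCF peaks. This interval too covers counting error only, since peaks near one gene share a window. The 10 peaks belonged to 5 genes, Sox1, Sox2, Olig2, Irx3 and Nkx6-1, and 71.7% of all genes had such a peak within 50 kb. Nkx2-2 had RAD21 peaks beside its CTCF peaks, as given above, while Sox3, Pax6, Pax3 and Isl1 had no RAD21 peak of InsCBS5-10 at all. The CTCF peaks with RAD21 had a median percentile of 67.2, and those without had 35.3. Without RAD21 the highest was the Isl1 site at 82.7. Medians over all CTCF peaks of InsCBS5-10 with and without RAD21 are not given here. The gap between 67.2 and 35.3 is therefore not read as a trait of these genes.

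By sharing, 11 of the 15 sites of all 3 CTCF lists overlapped a RAD21 peak of InsCBS5-10, against 56.7% of such sites in the genome. With the RAD21 list without a sample it was 12 of 15, against 88.7%. The first count was above the genome share and the second below it. With only 15 sites, neither difference is read as a trait of these genes. Of the 12 sites of DelCBS7-10 alone none overlapped a RAD21 peak of InsCBS5-10, against 2.13% of such sites in the genome. InsCBS5-10 called no CTCF on them either. The RAD21 list without a sample had peaks on 2 of the 12, at Pax6 (3.07) and Nkx2-2 (2.29), against 19.6%. No RAD21 library of DelCBS7-10 was analysed here. In the wild-type list, 20 of 26 CTCF peaks overlapped a peak of the RAD21 list without a sample (76.9%, 56.4% to 91.0%), against 68.7% of all wild-type peaks. That interval likewise covers counting error only. Where a CTCF peak overlapped a RAD21 peak, the CTCF summit and the nearest RAD21 summit lay a median of 41 bp apart in InsCBS5-10 (10 peaks, 8 to 100 bp). In the other pair of lists the median was 34 bp (20 peaks, 10 to 165 bp). Taking only the strongest summit of each RAD21 peak, the highest value there was 1108 bp, under the wide RAD21 peak at Nkx2-2.

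The RAD21 lists differed in peaks away from CTCF. All 12 RAD21 peaks of InsCBS5-10 near these genes lay on a CTCF site, and 4.53% of its 19610 peaks did not. In the list without a sample, 29 of 50 peaks near these genes lay on no CTCF site, against 43.2% of its 59484 peaks. Those 29 were weak, with a median fold enrichment of 3.14 and a median percentile of 23.0. Values for all such peaks of that list are not given here, so the weakness is not read as a trait of these genes. The 29 peaks were most numerous at Pax3 with 7 and Isl1 with 6, followed by Sox1 and Sox2 with 4 each, and none was at Pax6 or Nkx6-1. The lists differ in length and their depths are unknown, and the part of depth in this difference was not tested.

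The nearest CTCF peak with RAD21 in InsCBS5-10 was then located on each side of each gene, since such sites commonly border the stretch in which a gene and its enhancers meet. The distance between them, with the gene inside, had a median of 301 kb for the 10 genes, against 193 kb for all genes, 175 kb for the 26 other patterning factors and 205 kb for the 10 signalling genes. The smallest was 89.5 kb at Olig2 and the largest was 1261 kb at Isl1, which is percentile 92.2 among all genes. Sox3 had 543 kb, Sox2 had 456 kb and Pax3 had 441 kb. Nkx6-1 had 304 kb, Nkx2-2 had 297 kb, Irx3 had 216 kb, Pax6 had 183 kb and Sox1 had 170 kb. Thus 7 of the 10 were over the median of all genes and 4 were over the third quartile of 416 kb.

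**Figure D4:**
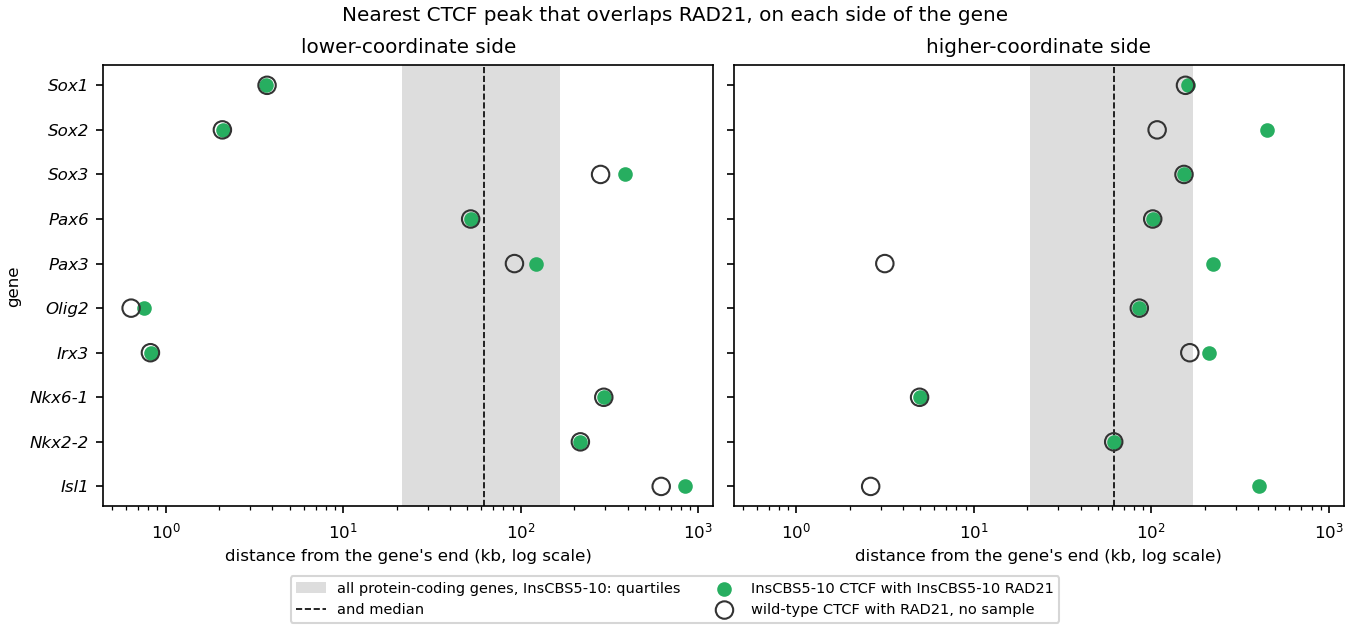
Distance in kb (log scale) from each end of the gene to the nearest CTCF peak that overlaps RAD21, on the side of lower coordinates (left) and higher coordinates (right). Filled points are InsCBS5-10, open circles are wild-type CTCF with the RAD21 list without a sample, and the grey band and dashed line are the quartiles and median of all protein-coding genes in InsCBS5-10. Most circles enclose their point, and the widest separations are on the right at Sox2, Pax3 and Isl1.

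In 5 genes the gene stood close to one of the flanking sites and far from the other. Olig2 was 0.753 kb from the upstream site and 85.6 kb from the other. Irx3 was 0.825 kb from the downstream one and 212 kb from the upstream one. Sox2 was 2.12 kb and 451 kb away, Sox1 was 3.69 kb and 162 kb away, and Nkx6-1 was 5.0 kb and 294 kb away. A flanking site within 10 kb was thus found at 5 of 10 genes, and at 5366 of all 21325. The long sides ran downstream of Sox1, Sox2, Olig2 and Nkx6-1 and upstream of Irx3. Between its flanking sites, each of Sox1, Sox2, Irx3, Nkx6-1 and Isl1 was the only protein-coding gene. Olig2 shared its stretch with Olig1, a related factor of the oligodendrocyte lineage, Nkx2-2 with Kiz, Xrn2 and Nkx2-4, Pax6 with Elp4, Sox3 with Gm715, and Pax3 with Gm2102, Sgpp2 and Farsb. With wild-type CTCF and the RAD21 list without a sample, Sox3 and Pax3 were also alone in their stretches. The share of all genes that stand alone in this way is not given here.

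The other 5 genes had more than 50 kb of sequence without such a site on both sides. The closest of these lay just outside the window, 52.2 kb upstream of Pax6 at chr2:105616482-105616755, with CTCF at 5.56 in the wild-type list, 5.91 in InsCBS5-10 and 6.01 in DelCBS7-10. CTCF sites of genes outside this group lay just inside the window, 48487 bp from Nkx6-1 and 48716 bp from Sox2. Their values are given above, and the Sox2 one had no CTCF or RAD21 call in InsCBS5-10. Around Nkx2-2 the flanking sites were strong, with 14.0, 9.13 and 6.85 at chr2:146959298-146959950 and 11.2, 9.0 and 8.80 at chr2:147256797-147257284. Around Pax3, whose own window held weak peaks, chr1:77978760-77979081 had 7.71, 8.09 and 7.90 and chr1:78419553-78419938 had 7.67, 6.06 and 4.49, with RAD21 at 7.04 and 7.09 in InsCBS5-10. Around Isl1, the site at chr13:115451338-115451656, 847 kb downstream, had 7.24 in wild type and 6.97 in InsCBS5-10 and no call in DelCBS7-10. The site at chr13:116712287-116712586, 403 kb upstream, had 13.0, 9.65 and 7.32. Of the 20 flanking sites, 18 were called in all 3 CTCF lists, against 94.1% over both sides of all genes, the exceptions being the downstream Isl1 site and one beside Sox3 at chrX:61046790-61046974 (4.06 in wild type and 5.83 in InsCBS5-10). On the side of lower coordinates of Sox3, chrX:60503981-60504343 had 11.1, 4.46 and 4.54, and its RAD21 value of 11.1 (percentile 93.9) was the highest of the 20. On the far side of Pax6, chr2:105799948-105800237 had 7.27, 4.69 and 7.20 with RAD21 at 3.73.

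The far sites of the genes that stood close to a flanking site were of unequal strength. Downstream of Sox2, chr3:35103235-35103602 had 12.5, 10.5 and 7.33 in wild type, InsCBS5-10 and DelCBS7-10, with RAD21 at 8.96 in InsCBS5-10. Downstream of Sox1, chr8:12561280-12561940 had 7.81, 6.60 and 6.66 with RAD21 at 4.57. Upstream of Irx3, chr8:92013162-92013516 had 6.45, 5.46 and 5.72, and its RAD21 value of 3.43 (percentile 6.63) was the lowest of the 20 by percentile. Downstream of Olig2, chr16:91314234-91314403 had 11.5, 3.70 and 7.14 with RAD21 at 7.75. Downstream of Nkx6-1, chr5:101365464-101365718 had 8.09, 4.37 and 7.18 with RAD21 at 7.21. Over all 20 flanking sites, CTCF percentiles in InsCBS5-10 had a median of 65.2 and ran from 16.7 beside Olig2 to 96.6 beside Sox2.

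With wild-type CTCF and the RAD21 list without a sample, 12 of the 20 flanking sites overlapped those of InsCBS5-10, against 49.7% over both sides of all genes, and the median stretch was 187 kb, against 110 kb over all genes. By ratio of the distances, the nearest site moved by more than 1.5 times on 3 of the 20 sides, all on the side of higher coordinates. At Isl1 it was 2.63 kb away instead of 403 kb, because the site at chr13:116311981-116312477 had RAD21 in that list (2.90). At Pax3 it was 3.16 kb away instead of 223 kb, by a wild-type CTCF peak of 2.71 (percentile 5.62), and at Sox2 it was 108 kb away instead of 451 kb. In each of these 3 cases the RAD21 peak was under percentile 35 of its list. At these 3 genes the shorter distance thus rests on weak RAD21 calls that the InsCBS5-10 list did not have.

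Other genes of neural tube patterning were counted in the same way. All 26 other patterning transcription factors had a CTCF site within 50 kb, with a median of 4, and 25 had one called in all 3 lists. The most sites were at Pax7 with 17, a dorsal paired-box factor related to Pax3, then at Lmx1b with 14 and Lmx1a with 10, LIM-homeobox factors of the roof plate and dorsal neurons. All 10 signalling genes had a site, with a median of 7, and 9 had one in all 3 lists. Gli1, a transcriptional effector of Sonic hedgehog signalling, had 12, and Gli2, Wnt1 and Wnt3a had 11 each. A CTCF peak with RAD21 in InsCBS5-10 was within 50 kb of 21 of the 26 factors and of 8 of the 10 signalling genes.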

How the data were processed

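CTCF and RAD21 were mapped by ChIPmentation in 4 labelled libraries of mouse gastruloids at 96 h, 1 per group, grouped by sample title. MACS2 2.2.7.1, cutadapt 4.1 and the build mm10 are named in the submitters' processing notes. The aligner, control and options used were not given in the sources used here. The authors deposited fold enrichment, a ratio of summit signal to local background, and −log10 q, with a minimum of 1.30 in each list. Both were used only within a list. Depth is unknown, so a missing peak was not called rather than shown to be absent.

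Summits sharing an interval were collapsed to the strongest. Distances were measured from the strongest summit. Gene positions, starts and upstream sequences came from RefSeq tables of GRCm38.p6. All 10 symbols matched, and 8 had promoter entries. Chromosome 11 near and beyond Hoxb13 was left out of the gene background, as the authors edited that sequence.

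The genes and lists were chosen with earlier results of these data known. The 10 genes are all named, and other genes by rank in number of sites. For each gene, sites within 5 kb, the strongest wild-type site, the flanking sites and the unshared sites in the upper 50% of a list were given. Counting was tested on simulated data. Python 3.11.15, pandas 2.3.3, numpy 2.4.6 and scipy 1.17.1 were used. Windows, thresholds and overlap rules were varied.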

Additional observations from a re-analysis of the deposited data

How the results depend on the processing

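Counts were recomputed with windows of 25 and 100 kb, with peaks of −log10 q of 5 or more, with windows by overlap, with sites shared where summits lay within 100 bp, and with every summit counted. With the 100 kb window the wild-type CTCF peaks rose in number from 26 to 40. With −log10 q of 5 or more they numbered 17, peaks of DelCBS7-10 fell from 30 to 16, peaks of the RAD21 list without a sample from 50 to 25, and sites from 39 to 22. Sites of DelCBS7-10 alone, whose alternatives were added after the values were seen, went from 12 to 5 of those 22 (22.7%, against 3.29% of all sites). Of these 5, sites at Pax3, Irx3 and the 3′ end of Nkx6-1 had no other call at any strength, and 2 at Sox2 had weaker calls in other lists. Among the sites of DelCBS7-10 alone near a start, only that at Irx3 reached this threshold. The other counts stayed within 1.5 times of those reported. Of the 20 flanking distances, 18 stayed within 1.5 times with the stricter threshold, and the exceptions were on the side of higher coordinates, at Pax6 (102 to 384 kb) and Irx3 (212 to 320 kb). Median percentiles ranked by −log10 q kept within 1.5 times in all 5 lists. No paired analysis was possible because each group has 1 library, and no replicate could be left out. Differences between lists in the number of called peaks can follow depth, which is unknown, and this was not tested.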
